A study of Mus musculus with 18 samples.

Results

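Nox4 and a set of antioxidant enzymes were followed across RNA-sequencing libraries of mouse embryonic fibroblasts (MEF), which are matrix-producing cells grown in culture. The 10 genes, Nox4, Sod2, Sod3, Cat, Gpx3, Hmox1, Nqo1, Txnrd1, Gclm and Srxn1, were taken by gene name from a table of 55450 genes, and each name matched 1 row. All 10 passed the filter on low counts that left 21161 genes for testing.

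The 18 libraries fell into 6 groups of 3. MEF, bought from a cell collection and grown in serum-containing medium, were transfected with 1 of 3 plasmids. The first was the empty pcDNA3 vector, the control. The second, Col1a1-miR-29b, carried the human precursor of the microRNA miR-29b (miR-29b-1) behind a collagen 1a1 promoter. In the third, CMV-miR-29b, the same precursor stood behind the always active cytomegalovirus promoter. From 6 h after transfection, cells of each plasmid were kept for 24 h with 20 ng/ml TGF-β, a cytokine that drives matrix production, or without it. The miR-29b plasmids also carry fluorescent reporter genes, which the labels do not describe for the control, and the plasmids were dosed by mole, so that their DNA mass differed. What the miR-29b insert did and what these differences did cannot be told apart in a comparison of plasmids.

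Nox4 is an NADPH oxidase, an enzyme whose main product in cells is hydrogen peroxide, and it is known in fibroblasts as a gene that responds to TGF-β. Superoxide dismutases convert superoxide to hydrogen peroxide, which catalase and glutathione peroxidases remove. The transcription factor Nrf2 drives a further group of enzymes that make glutathione, reduce thioredoxin and quinones, repair oxidised peroxiredoxins and break down heme. It acts through the antioxidant response element, a short DNA motif in promoters and enhancers.

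The mature miR-29b is shown because miR-29b is what the plasmids were built to make. The sequence of the mouse gene from RefSeq is given here, on GRCm38.p6 at chr6:31063025-31063047, minus strand, with the seed, bases 2 to 8, in capitals.
mmu-miR-29b-3p: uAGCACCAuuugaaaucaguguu
The complement of that seed, TGGTGCT, was looked for in the longest annotated 3′ UTR of each gene in the GENCODE annotation of GRCm38. It occurred in 2132 of 14375 tested genes with such a UTR, or 14.8%. Of the 10 genes, Srxn1 alone held it, once, at chr2:152111142-152111167 on the plus strand. The seed match is in capitals.
Srxn1: aataagatgcatcgTGGTGCTggatt
This stretch lies beyond the end that the deposited table gives for Srxn1 (chr2:152105516-152109322). The 3′ UTRs of the other genes ran from 570 bases in Hmox1 to 4963 bases in Sod2 and held no such site.

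The core of the antioxidant response element, TGACNNNGC, was looked for on both strands of RefSeq promoter windows (GRCm38.p6), which run from 250 bases before a gene's start to 50 after it. Of 27025 genes with a window, 3781 held it (14%). Of the 10 genes, 8 had a window, Sod3 and Hmox1 being the others, and 3 held the core, each on the strand opposite to the gene. They are shown since Nrf2 is known to act on all 3 genes, with the fixed letters of the core in capitals, at chr10:82859105-82859131 in 1 of 3 windows of Txnrd1, chr3:122245414-122245440 and chr2:152105543-152105569, minus strand each.
Txnrd1: gtgtcagaaTGACaaaGCaaaaatcca
Gclm: cgtgagagtTGACggtGCgcccgggag
Srxn1: gtctcactcTGACctaGCtgcccactg
No match in a window says only that these letters are not in it, and matches further away were not looked for.

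Total counts per library ran from 65898017 to 80332633, with a median of 74155860. The mouse gene Mir29b-1, the counterpart of the human insert and the row read here as a check of the labels, had 0 counts in all empty vector libraries, 0 to 1 in Col1a1-miR-29b cells, 2 to 6 when these were given TGF-β, 110 to 309 in CMV-miR-29b cells and 203 to 293 in CMV-miR-29b cells with TGF-β. A list of 6 fibroblast markers summed to 1660 to 2390 CPM (counts put on a common library total after TMM scaling) without TGF-β and 3300 to 5130 CPM with it, although Thy1 was at 0 in 14 libraries. A list of 5 leukocyte markers summed to 9.36 to 13.9 CPM, most of it Cd68. The lists of 4 endothelial and 4 epithelial markers stayed at 3.03 CPM and 2.94 CPM or below, and both sums were higher in every TGF-β library than in the untreated libraries of the same vector. Their part in the changes of the 10 genes was not tested. In bulk RNA, fewer cells that express a gene and less of its RNA per cell cannot be told apart.

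The levels of the genes spanned more than 3 orders of magnitude. FPKM, the authors' value per length of transcript and library total, was used to compare genes and was available for 16 libraries. Hmox1, which encodes the inducible heme oxygenase, was the highest with a median of 230 FPKM (219 to 282 over libraries). Cat, the catalase gene, followed with 39.2 FPKM, Srxn1, which encodes sulfiredoxin, with 33.5 FPKM and Txnrd1, the cytosolic thioredoxin reductase, with 23.3 FPKM. Sod2, the mitochondrial dismutase, had 7.71 FPKM and Gclm, the modifier subunit of glutamate-cysteine ligase, 5.23 FPKM. The remaining genes were below 1 FPKM, Nqo1 at 0.539, Gpx3 at 0.388, Nox4 at 0.32 and Sod3 at 0.113. The ranges over libraries of Cat (35.9 to 42.5 FPKM) and Srxn1 (7.22 to 38.9 FPKM) overlapped, as did those of Srxn1 and Txnrd1 (21.8 to 26.3 FPKM), of Sod2 (5.57 to 10.6 FPKM) and Gclm (2.01 to 6.79 FPKM), and of Nqo1 (0.264 to 0.945 FPKM), Gpx3 (0.264 to 0.544 FPKM) and Nox4 (0.165 to 0.503 FPKM). The range of Sod3 (0.0114 to 0.197 FPKM) overlapped that of Nox4. The length behind these values followed the union of all exons, which for Nox4 is 8471 bases against 3753 bases in its longest coding transcript, so that its level is understated beside genes with 1 transcript form. The same holds for Txnrd1 (7086 against 3622 bases) and Sod2 (10008 against 5861 bases). The order of the genes given above rests on these lengths.

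**Figure D1:**
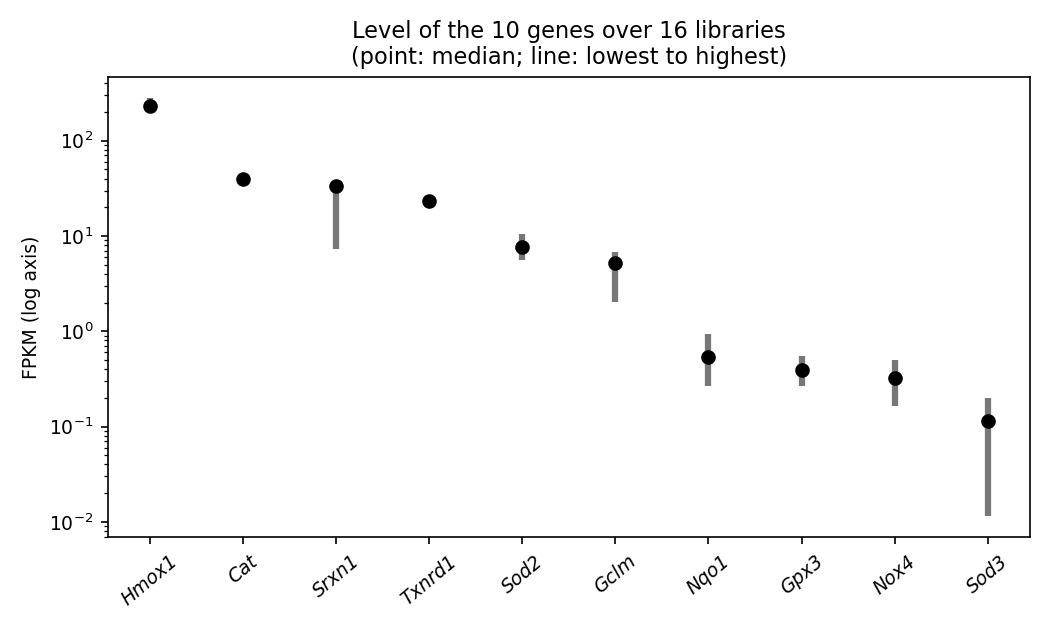
FPKM of each gene on a log axis, with the median over 16 libraries as a point and the lowest and highest library as the ends of the line. Hmox1 (median 230) stands above the others, and Nqo1, Gpx3, Nox4 and Sod3 lie below 1 FPKM.

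The first question was how TGF-β changed these genes in each vector. Nox4 rose by about 2-fold in empty vector and Col1a1-miR-29b cells. Nox4 lies at chr7:87246096-87398710 on the plus strand. In empty vector cells it had 154, 126 and 177 counts, and with TGF-β 316, 270 and 361. In Col1a1-miR-29b cells the counts were 141, 141 and 71, and with TGF-β 295, 259 and 202. In CMV-miR-29b cells they were 154, 200 and 156, and with TGF-β 287, 246 and 279. Every TGF-β library was above every untreated library of its own vector, as was the case for 11.3% of all tested genes in empty vector cells, 11.8% in Col1a1-miR-29b cells, then 11.1% in CMV-miR-29b cells. On the CPM scale the means were 1.92 ± 0.346 and 4.29 ± 0.751 in empty vector cells, 1.59 ± 0.527 and 3.46 ± 0.564 in Col1a1-miR-29b cells, and 2.2 ± 0.355 and 3.84 ± 0.0745 in CMV-miR-29b cells (SD, n = 3 each).

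The log2 fold change of Nox4 was 1.16 (SE 0.233, 2.23-fold) in empty vector cells, with an adjusted p of 0.00583 by edgeR's quasi-likelihood test with Benjamini-Hochberg adjustment, the test behind every adjusted p given here unless another is named. It passed under all 15 alternatives run (adjusted p 5.21e-05 to 0.0407). In Col1a1-miR-29b cells it was 1.12 (SE 0.234, adjusted p = 0.00984). In CMV-miR-29b cells it was 0.80 (SE 0.231) with an adjusted p of 0.0626, which missed the threshold of 0.05, while DESeq2 gave 0.0169 and counts divided by 4 gave 0.0349 (0.0169 to 0.213 over 15 alternatives). The call in Col1a1-miR-29b cells was lost without TGF-β replicate c (log2 change 1.01, adjusted p = 0.0502) and with these groups fitted alone (adjusted p = 0.104), over alternatives from 0.000161. Averaged over the 3 vectors, a contrast added after the data were seen, Nox4 rose by 1.03 on the log2 scale (SE 0.134, adjusted p = 5.13e-05), and it passed with any single library left out. The p-values measure the spread between these libraries, which may be partly technical. The paper states that the experiment was repeated 3 times for each group, while nothing in the labels says how separate the cultures were.

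**Figure D2:**
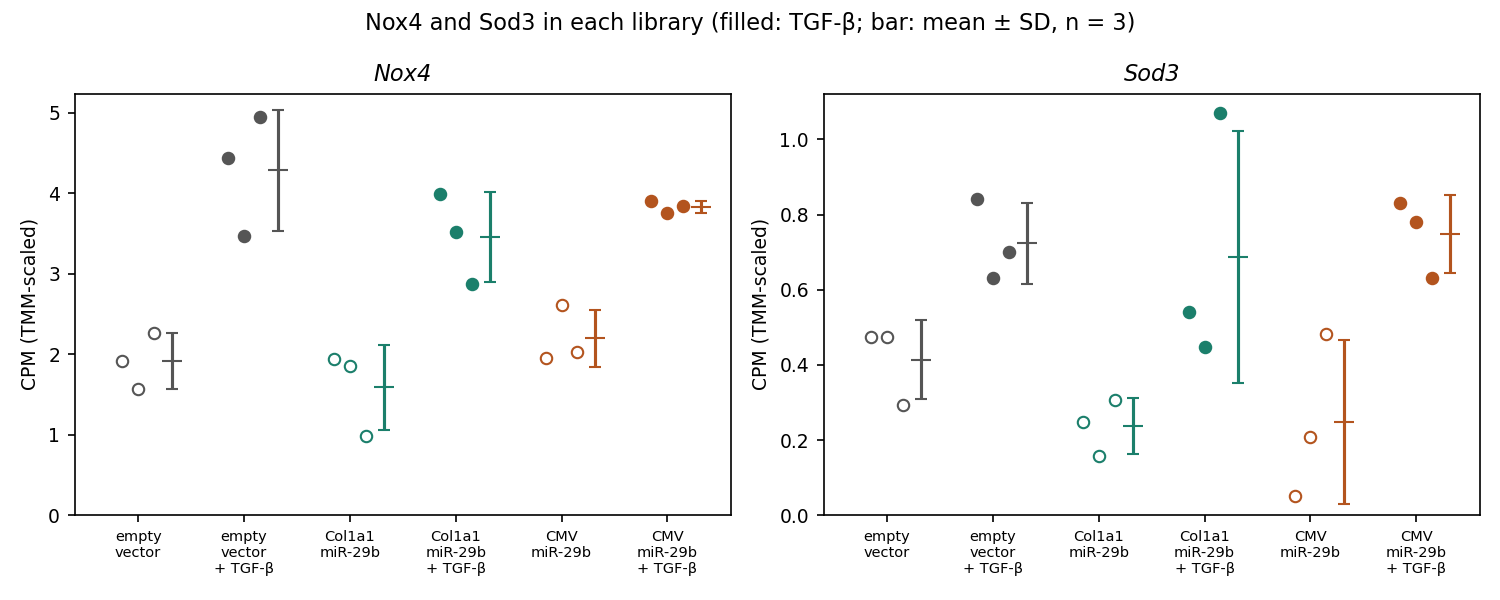
CPM of Nox4 and Sod3 in each library, by vector and treatment, with filled points for TGF-β and the mean and SD of 3 libraries beside them. For both genes the filled points of a vector lie above its open points, from 2.87 to 4.95 CPM for Nox4 and from 0.449 to 1.07 CPM for Sod3.

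Sod3, the extracellular superoxide dismutase (chr5:52363791-52371418), was also higher with TGF-β, at very low counts. In empty vector cells it had 38, 38 and 23 counts against 60, 49 and 51 with TGF-β. The counts were 18, 12 and 22 against 40, 33 and 75 in Col1a1-miR-29b cells, and 4, 16 and 37 against 61, 51 and 46 in CMV-miR-29b cells. As for Nox4, the groups did not overlap in any vector. Every TGF-β library was higher for 11.3%, 11.8% and 11.1% of all tested genes in the 3 vectors. The log2 fold changes of Sod3 were 0.80 (SE 0.521), 1.53 (SE 0.541) and 1.59 (SE 0.539), with adjusted p of 0.506, 0.163 and 0.125, so no vector alone passed. With the 37-count library (CMV-miR-29b replicate e) left out, the change in that vector was 2.51 and passed (adjusted p = 0.0172, the lowest of 15 alternatives that reached 0.334). Averaged over vectors, Sod3 rose by 1.31 (SE 0.308, adjusted p = 0.0085), and it passed with any single library left out.

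Sod2, the dismutase of the mitochondrial matrix (chr17:13006846-13037398), was lower with TGF-β at much higher counts. It had 6196, 8106 and 6299 counts in empty vector cells and 5321, 6927 and 4690 with TGF-β, with overlapping groups. In Col1a1-miR-29b cells it had 8481, 7099 and 6910 counts, and 5876, 6500 and 5789 with TGF-β. In CMV-miR-29b cells it had 7748, 6851 and 6859 counts, and 6182, 5354 and 5248 with TGF-β. Both miR-29b vectors thus had every TGF-β library lower, as did 10.2% and 9.89% of all tested genes. The log2 changes were −0.18, −0.29 and −0.22 (SE 0.122 each) with adjusted p of 0.517, 0.274 and 0.432. The average over vectors fell by 0.23 on the log2 scale (SE 0.07, adjusted p = 0.0392). That call was lost without any 1 of 9 libraries, which were empty vector replicate d, empty vector with TGF-β replicates c and e, Col1a1-miR-29b replicate c, Col1a1-miR-29b with TGF-β replicate c and the unlettered one, CMV-miR-29b replicate c, and CMV-miR-29b with TGF-β replicates d and e (adjusted p 0.0506 to 0.0828).

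Of the enzymes that remove hydrogen peroxide, Cat (chr2:103453849-103485160) ran from 7652 to 9935 counts over the 18 libraries. Its highest CPM was 1.19 times its lowest, the narrowest range of the 10 genes, just under that of Txnrd1 (1.2 times). TGF-β changed it by −0.00, 0.06 and 0.06 on the log2 scale in the 3 vectors (SE 0.058 each), and the 95% interval of the average was −0.03 to 0.11. Gpx3, the secreted glutathione peroxidase (chr11:54902453-54910377), had 41 to 84 counts in all libraries, with overlapping groups in each vector. Its log2 changes with TGF-β were 0.19, 0.23 and 0.06, with SEs of 0.26 to 0.262. None passed, and the 95% interval of the average was −0.16 to 0.48.

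Among the enzymes linked to Nrf2, Txnrd1 (chr10:82833951-82897712) was higher with TGF-β in all vectors by a small amount. Its CPM were 180, 173 and 174 in empty vector cells and 190, 191 and 199 with TGF-β. They were 181, 181 and 182 in Col1a1-miR-29b cells and 201, 190 and 203 with TGF-β, and 185, 179 and 176 in CMV-miR-29b cells and 207, 199 and 196 with TGF-β. The treated and untreated libraries of a vector did not overlap. In this direction that held for 11.3%, 11.8% and 11.1% of all tested genes in the 3 vectors. The log2 changes were 0.14 (adjusted p = 0.0339), 0.13 (adjusted p = 0.0639) and 0.16 (adjusted p = 0.0174), with SEs of 0.036, and the average was 0.14 (SE 0.021, adjusted p = 0.000179). The call in empty vector cells was lost with any 1 of its 6 libraries left out (adjusted p 0.055 to 0.246) and with scaling by total counts (0.148). It was also lost with all genes of at least 1 count tested (0.0757) and with the groups fitted alone (0.203). In CMV-miR-29b cells it was lost without replicate d or e, or TGF-β replicate c or d (adjusted p 0.0614 to 0.0984) or with the groups fitted alone (0.144), whereas the average passed without any single library. The 3 annotated genes that overlap Txnrd1 had at most 75 counts each.

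Hmox1 (chr8:75093621-75100589) had 425 to 461 CPM in empty vector cells and 436 to 505 with TGF-β. Col1a1-miR-29b cells had 465 to 480 CPM and 516 to 554 with TGF-β, without overlap, as had 11.8% of all tested genes in this direction. In CMV-miR-29b cells it had 426 to 446 CPM and 442 to 455 with TGF-β. The log2 changes were 0.12, 0.17 and 0.03 (SE 0.048 each), with adjusted p of 0.224, 0.0623 and 0.86. The average was 0.11 (SE 0.028, adjusted p = 0.0173), and this call was lost without empty vector with TGF-β replicate e, Col1a1-miR-29b with TGF-β replicate d, or replicate d of CMV-miR-29b cells with or without TGF-β (adjusted p 0.0501 to 0.054).

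Nqo1, a quinone reductase often read as a marker of Nrf2 activity (chr8:107388225-107403206), had few counts, 34 to 132. It had 74, 132 and 50 counts in empty vector cells and 34, 91 and 71 with TGF-β, then 83, 70 and 46 against 105, 90 and 49 in Col1a1-miR-29b cells, and 70, 83 and 100 against 51, 45 and 58 in CMV-miR-29b cells. The groups did not overlap in CMV-miR-29b cells, where every TGF-β library was lower (9.89% of all tested genes), and overlapped in the other vectors. The log2 changes were −0.29, 0.31 and −0.59 (SE 0.38 to 0.384), and none passed (adjusted p 0.543 to 0.832).

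**Figure D3:**
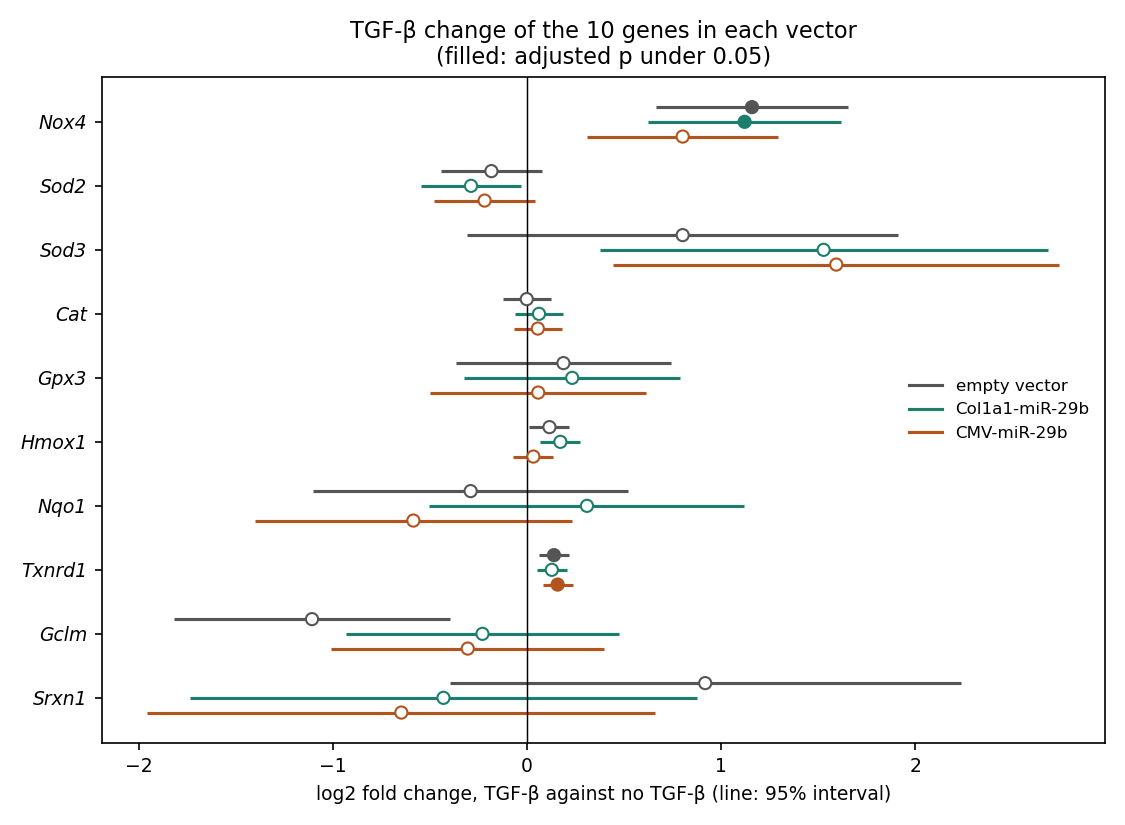
Log2 fold change with TGF-β of each gene in empty vector, Col1a1-miR-29b and CMV-miR-29b cells, with 95% intervals as lines and filled points for an adjusted p under 0.05. The filled points are Nox4 in empty vector (1.16) and Col1a1-miR-29b cells (1.12) and Txnrd1 in empty vector (0.14) and CMV-miR-29b cells (0.16).

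Gclm, needed for full activity of the first enzyme of glutathione synthesis (chr3:122245557-122270732), had its largest difference in empty vector cells. It had 3103, 3795 and 3227 counts there and 1788, 1506 and 1066 with TGF-β, without overlap, as had 9.69% of all tested genes in this direction. The log2 change was −1.11 (SE 0.334) with an adjusted p of 0.0686. DESeq2 gave 0.0271 and the groups fitted alone 0.0281 (0.0271 to 0.255 over 15 alternatives). In Col1a1-miR-29b cells the counts were 1921, 3564 and 3476 against 2867, 3075 and 1612 with TGF-β. In CMV-miR-29b cells they were 1598, 3391 and 3593 against 1455, 2295 and 2558. These groups overlapped, and the log2 changes were −0.23 (SE 0.33) and −0.31 (SE 0.33). Averaged over vectors, the change of Gclm was −0.55 (SE 0.191) and did not pass (adjusted p = 0.0739). It passed without Col1a1-miR-29b replicate c (0.0384) or CMV-miR-29b replicate c (0.0185), among 27 alternatives that reached 0.236. The TGF-β change in the miR-29b vectors differed from that in empty vector cells by 0.88 (95% interval −0.12 to 1.88) and 0.80 (−0.20 to 1.80), neither past the test.

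In each of the 4 miR-29b groups, 1 library was low for Gclm, at 19.8 to 26.4 CPM against 35.1 to 48.3 CPM in the others of these groups. The empty vector libraries with TGF-β, at 14.6 to 25.1 CPM, lay in or below that low range. Those without TGF-β, at 38.8 to 47.4 CPM, lay in the high range. Whether the fall in empty vector cells and the scattered low libraries share a source was not tested. A gene on the opposite strand, Gm17494 (chr3:122255958-122293720), covers part of Gclm with 2792 to 17103 counts, more than Gclm itself has at the median. The library kit keeps strand, but whether the counting used it is not given in the sources used here, so reads of both genes cannot be told apart with certainty. Over the 18 libraries the log2 CPM of Gclm and Gm17494 had a Pearson r of 0.379, given as a description of points that share library and treatment.

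Srxn1, which encodes the enzyme that repairs over-oxidised peroxiredoxins, split the libraries in a way that neither vector nor TGF-β followed. It had 1833, 8321 and 2569 counts in empty vector cells, and 8075, 6575 and 7546 with TGF-β. Col1a1-miR-29b cells had 8089, 8069 and 8514 counts, and 7855, 9053 and 1360 with TGF-β. In CMV-miR-29b cells it had 9314, 8967 and 9196 counts, and 7256, 1573 and 7551 with TGF-β. The 4 low libraries reached at most 32.9 CPM and the other 14 started at 84.6 CPM, 2.57-fold higher. The low libraries were empty vector c and e, CMV-miR-29b with TGF-β d and the unlettered Col1a1-miR-29b with TGF-β library. No gene of the deposited table overlaps the span given there for Srxn1, and the annotated stretch beyond that span was not searched. Of the 4 libraries low for Srxn1, 1, the unlettered one, was low for Gclm as well (Pearson r of Srxn1 and Gclm 0.019 over 18 libraries). The log2 changes of Srxn1 with TGF-β, 0.92, −0.43 and −0.65 (SE 0.613 to 0.618), did not pass in any vector.

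**Figure D4:**
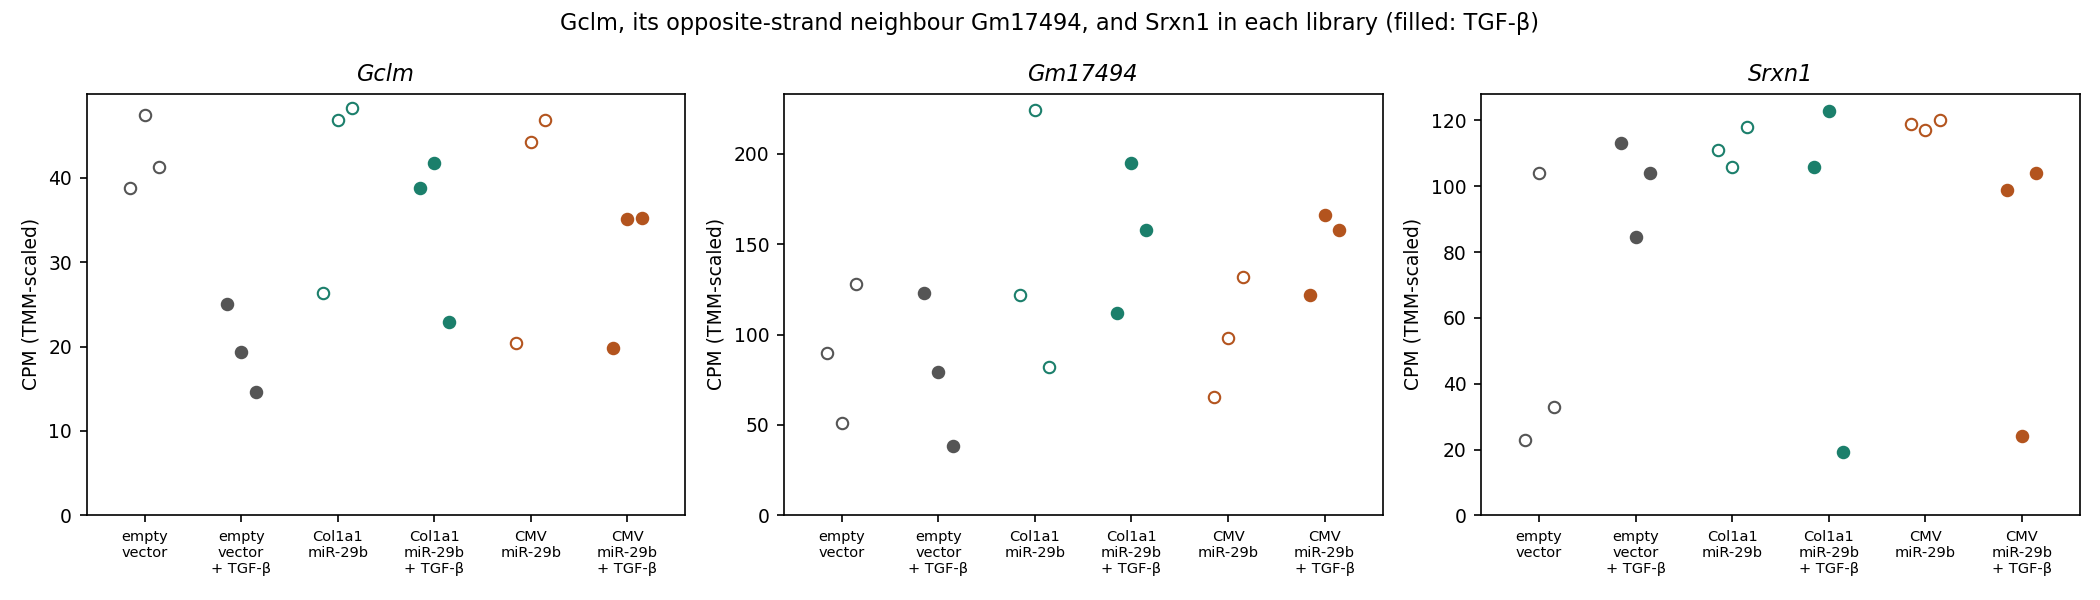
CPM of Gclm, of the opposite-strand gene Gm17494 and of Srxn1 in each library by group, with filled points for TGF-β. Srxn1 lies below 32.9 CPM or just at it in 4 libraries of 3 groups and from 84.6 CPM upward in the others, while Gclm is lower with TGF-β without overlap in the empty vector only.

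Read as a set, the TGF-β calls were few. In empty vector cells 2 of the 10 genes passed, both higher, where 5.88% of all 21161 genes passed and 3.88% passed as higher. In Col1a1-miR-29b cells it was Nox4 alone, where 4.32% of all genes passed and 3.0% as higher. With CMV-miR-29b it was Txnrd1 alone, where 4.95% passed and 3.08% as higher. DESeq2 called 3, 3 and 2 of the 10 genes, and 1753, 1317 and 1508 of all genes. The median log2 change of the 10 genes was 0.13, 0.15 and 0.04, and that of all genes was between −0.01 and 0.00. Averaged over vectors, 4 passed as higher (Nox4, Sod3, Txnrd1, Hmox1) and 1 as lower (Sod2), where 13.7% of all genes passed, 7.83% higher and 5.86% lower. Over the 18 libraries, the log2 CPM of Nox4 had a Pearson r of 0.749 with Txnrd1, 0.602 with Sod3 and −0.684 with Sod2, as a description of points that share treatment.

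The second question was whether the miR-29b plasmids changed these genes. With TGF-β, 1 of 10 passed in Col1a1-miR-29b against empty vector cells, where 12.9% of all genes passed, and 0 in CMV-miR-29b against empty vector cells, where 0.00945% passed. In the latter, 0 of the 10 reached an unadjusted p under 0.05 by edgeR and 0 passed by DESeq2. Of all 21161 genes, 2531 reached that p by edgeR in this comparison, and DESeq2 called 288. The 1 gene that passed in Col1a1-miR-29b against empty vector cells was Hmox1. It had 530, 554 and 516 CPM in Col1a1-miR-29b cells with TGF-β and 505, 436 and 485 CPM in empty vector cells with TGF-β. The log2 difference was 0.17 (SE 0.048, adjusted p = 0.0324). The groups did not overlap, as for 14.8% of all genes in this direction, and 5.31% of all genes passed as higher. This call was lost when length and GC offsets were used (log2 difference 0.09, adjusted p = 0.343), with all genes of at least 1 count tested (0.0606) and with the groups fitted alone (0.179). It was also lost without empty vector with TGF-β replicate d or e, or Col1a1-miR-29b with TGF-β replicate c or d (adjusted p 0.0678 to 0.135). Over its 15 alternatives the adjusted p ran from 0.00635 to 0.374.

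Nox4 with TGF-β differed from empty vector cells by −0.31 on the log2 scale in Col1a1-miR-29b cells (95% interval −0.80 to 0.18) and by −0.16 in CMV-miR-29b cells (−0.65 to 0.33). The rise itself differed between vectors by −0.04 (−0.74 to 0.66) and −0.36 (−1.05 to 0.34). None of these passed. Without TGF-β, 0 of the 10 genes passed by edgeR in either vector, where 6.27% (Col1a1-miR-29b) and 0.00473% (CMV-miR-29b) of all genes did. At an unadjusted p under 0.05 there were 1 and 0 of the 10, and DESeq2 called 0 in both. Of all genes, 4560 and 1156 had such a p by edgeR, and DESeq2 called 2398 and 42. No gene of the 10 and none of the whole table (0.0%) passed for a different TGF-β response in Col1a1-miR-29b or CMV-miR-29b cells than in empty vector cells by edgeR. At an unadjusted p under 0.05 there were 961 and 1129 such genes of the table, and DESeq2 called 24 and 21. Of the 10 genes, 0 reached an unadjusted p under 0.05 for either difference and DESeq2 called 0.

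The genes around these 10 were described with 7 lists of related genes, 103 genes in all, of which 90 could be tested. The lists were chosen with earlier results of these data known, so their counts are a description and not independent support. In the list of glutathione synthesis and conjugation, 24 genes were tested, and TGF-β lowered 7 in empty vector cells and, of the miR-29b vectors, 2 with Col1a1-miR-29b but 7 with CMV-miR-29b. Of all tested genes, 2.01%, 1.32% and 1.87% passed as lower. None of the 24 was higher by edgeR or DESeq2, and 0 were higher at an unadjusted p under 0.05. The median log2 change of the list was −0.30, −0.16 and −0.24. Between either miR-29b plasmid and the empty vector, 0 of the 24 passed for a different TGF-β response by edgeR or DESeq2. At an unadjusted p under 0.05 by edgeR there were 2 for Col1a1-miR-29b and 0 for CMV-miR-29b. Averaged over vectors, 12 were lower and 0 higher, with a median of −0.22 against −0.01 (all genes). In that contrast 5.86% of all genes passed as lower and 7.83% as higher. The other Nrf2-linked genes gave 0 higher and 5 lower of 19 tested. The other dismutases and peroxidases gave 3 higher and 3 lower of 12, and the NADPH oxidase list 1 and 1 of 12. The Nrf2 regulators gave 2 higher and 1 lower of 11, and the thioredoxin and glutaredoxin system 0 and 1 of 9.

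Gstm7, a glutathione S-transferase, passed in all vectors. It had 482 to 607 counts in empty vector cells and 233 to 316 with TGF-β (log2 change −0.94, SE 0.162, adjusted p = 0.00175), and it changed by −0.86 and −0.71 in the other vectors. Gsta4, which handles products of lipid peroxidation, changed by −0.66, −0.52 and −0.55, and each passed. Gstm1 changed by −0.66 in empty vector cells (adjusted p = 0.000331) and by −0.54 in CMV-miR-29b cells (adjusted p = 0.00235). Mgst3 changed by −0.73 in CMV-miR-29b cells (adjusted p = 0.0381). Glutathione S-transferases are families with near-identical copies, among which the counting could have split reads, so that the values of single copies are uncertain. Gclc, the catalytic partner of Gclm, was lower by 0.18 on the log2 scale in empty vector cells (adjusted p = 0.022), and the cystine carrier Slc7a11 did not pass (0.11, adjusted p = 0.907).

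Lower calls in the 3 vectors made up 2.01%, 1.32% and 1.87% of all tested genes. Other genes linked to Nrf2 gave 3, 1 and 3 lower of 19 tested in these vectors. Higher were 0 by edgeR or DESeq2, and 1, 0 and 0 at an unadjusted p under 0.05. Ephx1, the microsomal epoxide hydrolase, passed in all of them with −0.42 (adjusted p = 0.00043), −0.25 and −0.40, and Fth1, the heavy chain of the iron store ferritin, passed in empty vector cells (−0.34, adjusted p = 0.00364) and in CMV-miR-29b cells (−0.29, adjusted p = 0.0121). Fth1 has many near-identical copies in the genome. Of 3 metallothioneins, which bind metals, Mt1 alone passed in a single vector, lower by 0.31 in each of these same ones. Averaged over vectors, where 5.86% of all genes passed as lower, all 3 did. Of these, Mt3 had 0 to 14 counts (median 2) and 0 counts in 9 libraries, a level near the limit of detection. Of 11 tested regulators of Nrf2, 1, 1 and 0 were higher in the 3 vectors, and 0 passed as lower by edgeR (1, 0 and 1 at an unadjusted p under 0.05, and 0, 0 and 1 by DESeq2). As higher, 3.88%, 3.0% and 3.08% of all tested genes passed by edgeR. The gene of Nrf2 itself, Nfe2l2, changed by −0.13, −0.07 and −0.20 and passed in none. Sqstm1, an adaptor that binds the Nrf2 inhibitor Keap1, was higher by 0.33 (adjusted p = 0.00175) in empty vector cells and 0.30 (adjusted p = 0.0047) in Col1a1-miR-29b cells.

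Of the partners and relatives of Nox4 among the NADPH oxidases, 12 genes were tested. With TGF-β, 1, 2 and 1 of the 12 were higher in the 3 vectors, against 3.88%, 3.0% and 3.08% of all tested genes. Lower were 0 by edgeR or DESeq2, and 1, 0 and 1 at an unadjusted p under 0.05. Cyba, which encodes p22phox, the membrane partner that Nox4 needs, had 3702 to 5551 counts and passed in no vector. Cybb and Nox3 had 0 counts in all 18 libraries. Duoxa1, a maturation factor of the dual oxidases, had 13 to 29 counts in empty vector cells and 59 to 70 with TGF-β, and its log2 changes of 1.75, 1.56 and 1.39 all passed (adjusted p = 0.0114, 0.0279 and 0.044). Nox1 had 0 counts in all Col1a1-miR-29b libraries and 5 to 9 with TGF-β (adjusted p = 0.0348), a level near the limit of detection.

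Of the remaining dismutases and peroxidases, 2, 1 and 3 of 12 were higher and 2, 0 and 1 lower. Among all tested genes, 3.88%, 3.0% and 3.08% passed as higher and 2.01%, 1.32% and 1.87% as lower. Prdx4, the peroxiredoxin of the endoplasmic reticulum, passed as higher in all 3 vectors. Its log2 changes were 0.20, 0.15 and 0.155 (adjusted p = 0.0015, 0.0135 and 0.0103). Gpx8, a peroxidase of the same compartment, was higher by 0.23 in empty vector cells (adjusted p = 0.0157) and 0.34 in CMV-miR-29b cells (adjusted p = 0.000773). Prdx2, a cytosolic peroxiredoxin, was higher by 0.16 in CMV-miR-29b cells (adjusted p = 0.0384). Prdx1 and Prdx3 were lower by 0.17 each in empty vector cells, and Sod1, the cytosolic dismutase, by 0.25 in CMV-miR-29b cells (adjusted p = 0.023). Of 9 genes of the thioredoxin and glutaredoxin system, 0 passed by edgeR in any vector. In each vector 1 had an unadjusted p under 0.05, and DESeq2 called 1 in empty vector cells.

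**Figure D5:**
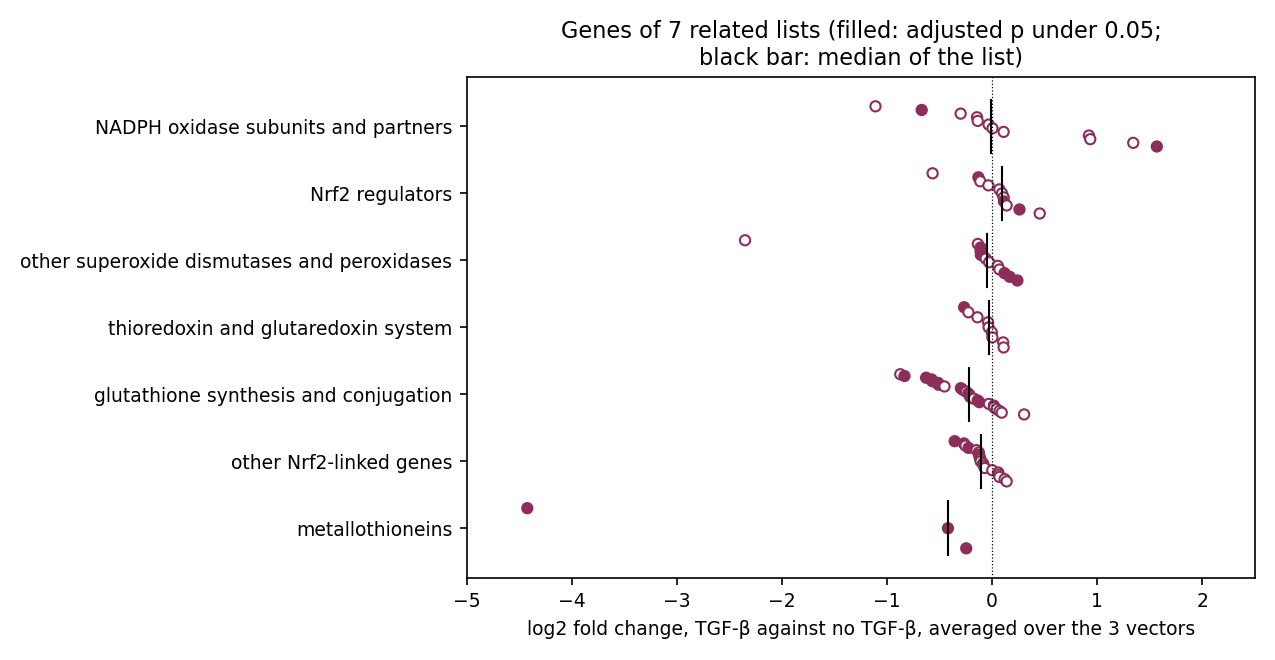
Log2 fold change with TGF-β, averaged over the 3 vectors, of each tested gene in 7 lists, with filled points for an adjusted p under 0.05 and a black bar at the list's median. In glutathione synthesis and conjugation the 12 filled points all lie below 0, with the list's median at −0.22.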

How the data were processed

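Poly(A) RNA libraries were made with a kit that keeps strand, and per the labels and the study's methods the authors trimmed with cutadapt, checked reads with FastQC, used HISAT2 for mapping and StringTie for assembly. The authors deposited raw counts per gene and FPKM values (DESeq2 is named as their source). The step from assemblies to counts is not given in the sources used here. The labels name build mm9, while coordinates of 52543 of 55450 genes are identical to GENCODE M21 (GRCm38), so GRCm38 is used. Among counts of 1 to 40, 33.8% to 36.7% per library were multiples of 4 (25% by chance). The third library of each Col1a1-miR-29b group carries a letter that no sample title has. Its counts were used without a letter, and 2 columns of per-sample values, its FPKM, were not used.

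Counts were tested with edgeR 4.0.16 in R 4.3.3 (filterByExpr, TMM, 1 mean per group over 18 libraries, quasi-likelihood F test, Benjamini-Hochberg over 21161 genes, threshold 0.05). Standard errors came from the F statistic. Correlations are descriptions. The members and lists were chosen with earlier results of these data known. Named were the 10 members, of each list the 2 largest rises and falls past the threshold per comparison, Mir29b-1, and the 5 genes most like Nox4 and Nqo1. Gm17494 and, beside them, Cyba, Cybb, Nox3, Slc7a11, Mt3, Thy1 and, for their TGF-β changes, Gclc and Nfe2l2 were named after their values were seen. The contrast averaged over vectors was added after the data were seen.

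The letters c, d and e were checked for pairing over 10360 genes: deviations from group means had a mean r of 0.013 for 36 pairs of the same letter (4 above 0.1) and −0.0066 for 70 pairs of different letters, so no block was used. Alternatives were DESeq2 1.42.0, edgeR with DESeq2's size factors or with total counts, all genes with at least 1 count, the groups compared alone, the replicate block, each library left out, counts divided by 4, and offsets for length and GC content without and with the block. A simulation checked the fit for TGF-β in empty vector cells alone, with the same spread for every gene. It does not show how well small changes, or genes as scattered as Sod3 and Srxn1, are estimated. Depths limit the precision of the genes with few counts, such as Sod3, Nqo1 and Gpx3.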

Additional observations from a re-analysis of the deposited data

How the results depend on the processing

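Of 1740 recomputed log2 changes of the 10 genes, 46 lost a call, 13 gained one and no called value reversed. The other 1681 kept their side of the threshold. They include 1517 that passed in neither fit, 84 of which had the other sign. For TGF-β in empty vector cells, the 2 calls among the 10 genes became 1 with total counts, with all genes of at least 1 count and with the replicate block (1 to 2 with a library left out), and the 1245 genes called became 618 with the groups compared alone (725 to 1428 with a library left out). In Col1a1-miR-29b cells, the 1 call became 3 with DESeq2 and 0 with the groups alone or with length and GC offsets and the block (0 to 2 with a library left out), and 914 genes became 394 with the block and 409 with offsets and block. In CMV-miR-29b cells, the 1 call became 2 with DESeq2, counts divided by 4, and offsets with the block, and 0 with the groups alone (0 to 1 with a library left out), and 1047 genes became 527 with the groups alone. For Col1a1-miR-29b against empty vector with TGF-β, the 1 call became 0 with all genes of at least 1 count, the groups alone, the block, and offsets without or with it (0 to 1 with a library left out), and 2738 genes became 1072 with the groups alone, 1152 with the block and 715 with offsets and block (1291 to 3182 with a library left out). For CMV-miR-29b against empty vector with TGF-β, 2 genes became 288 with DESeq2, 4 with all genes of at least 1 count, 7 with the groups alone, 1 with counts divided by 4 and 11 with offsets (3 to 160 with a library left out). Without TGF-β, the 1327 genes of Col1a1-miR-29b against empty vector became 2398 with DESeq2, 782 with the groups alone, 161 with the block and 197 with offsets and block (468 to 1043 with a library left out), and the 1 gene of CMV-miR-29b became 42 with DESeq2, 10 with the groups alone and 0 with counts divided by 4 (1 to 5 with a library left out). The 0 genes with a different TGF-β response became 24 with DESeq2, 1 with the groups alone, 2 with the block and 2 with offsets and block in Col1a1-miR-29b cells (0 to 3 with a library left out), and 21 with DESeq2 and 1 with the groups alone in CMV-miR-29b cells (0 to 2 with a library left out). Averaged over vectors, the 5 calls became 3 with the block and with offsets and block (3 to 5 with a library left out). The groups alone hold fewer libraries, and the block leaves out the 2 unlettered ones; other causes were not tested. With the replicate block, Nox4 in CMV-miR-29b cells passed (adjusted p = 0.0305 by edgeR), and Sod2 and Hmox1 averaged over vectors did not (0.0526 and 0.0604). It also ended the calls of Txnrd1 in empty vector cells (0.0792) and, just over the threshold, in CMV-miR-29b cells (0.05), and that of Hmox1 in Col1a1-miR-29b against empty vector with TGF-β (0.0831). Length and GC offsets with the block ended those of Nox4 in Col1a1-miR-29b cells (0.0623), of Hmox1 in the last comparison (0.374) and averaged over vectors (0.0695), and of Sod3 averaged over vectors (0.0509).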

Other observations

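With TGF-β, Col1a1-miR-29b cells differed from empty vector cells in 15 of the 90 tested genes of the related lists, 11 higher and 4 lower (16.7%, against 12.9% of all genes). The median log2 difference of these genes was 0.07, and 0.02 over all genes. Higher were Glrx, a glutaredoxin, with 1758 to 1805 counts against 968 to 1540 (log2 difference 0.56, SE 0.111, adjusted p = 0.00447 by edgeR), and Glrx5, its mitochondrial relative that acts in iron-sulfur cluster assembly (0.39, adjusted p = 0.00212). Prdx1 (0.22) and Gpx4, the peroxidase of membrane lipid peroxides (0.19), were higher too, as were Gclc (0.16), Fth1 (0.30), Pgd of the pentose phosphate pathway (0.23) and Mafk, a small Maf partner of Nrf2 (0.32). Lower were Chac1, which breaks down glutathione (−0.68, SE 0.079, adjusted p = 0.000233), the exporter Abcc1 (−0.42), Ephx1 (−0.29) and Nfe2l2 (−0.22). In CMV-miR-29b against empty vector cells with TGF-β, 0 of the 90 passed by edgeR or DESeq2, and 15 had an unadjusted p under 0.05, 7 higher and 8 lower. Of all 21161 tested genes, 2531 had such a p by edgeR.

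Over the 18 libraries and 13913 genes, the log2 CPM of Nox4 was most like that of Dbn1 (Pearson r of 0.934), Tubb3, Ackr3 and Pdia5 (0.931 each) and Lamb3 (0.928). Their log2 changes with TGF-β in empty vector cells were 0.49, 0.77, 0.82, 0.53 and 1.41. Nqo1 had no gene as close, with AC151284 (0.794), Luc7l (0.761), Gm10132 (0.751), Gm14703 (0.749) and Gm12932 (0.726) at the top. These points share library, depth and treatment.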
